A study of Mus musculus with 12 samples.

Results

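The genes described here are 10 immediate early response genes, Fos, Fosb, Jun, Junb, Egr1, Egr2, Ier2, Ier3, Cyr61 and Dusp1. Their rows were found by gene symbol, with no threshold on a measured value, and all 10 were found among the 23354 genes listed for every library. The 10 genes were chosen with earlier results of these data known. Their shares beside those of all genes thus describe a picked set and are no independent test. All 10 passed the filter on low values, which kept the 13109 genes that reached 1 FPKM in 2 or more libraries. FPKM counts sequenced fragments relative to transcript length and to the mapped total of the library, so levels of different genes are given per length. Captured mRNA was sequenced from embryonic stem cells of the mouse line J1 that carried a stable construct, with 2 libraries in each of 6 groups. The H3.1K36M and H3.1K9M lines overexpressed histone H3.1 with methionine in place of lysine 36 or lysine 9, and the H3.1WT lines overexpressed wild-type H3.1. The shSuv39h1 and shSuv39h2 lines carried a short hairpin RNA named for one of the pair of H3K9 methyltransferase genes, and the shNC lines carried the control hairpin. All 6 groups shared the parental J1 background, a layer of inactivated mouse embryonic fibroblasts as feeders, medium with serum and leukemia inhibitory factor, and passage as single cells with trypsin. The promoter of the histone transgenes, the hairpin sequences, whether a line was 1 clone or a pool, the removal of feeders, and the time from the last feeding or passage to lysis are not stated. Nothing says that the libraries of a group came from separate cultures, so the p-values reflect only how far these libraries differ, and that spread may be technical. Each p-value of the main fit rests on a spread pooled over all 12 libraries, although the replicate pairs of the 6 groups differed widely in spread.

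Immediate early genes are transcribed within minutes of a stimulus such as serum, a growth factor or cell stress, without new protein synthesis, and most of their transcripts are short-lived. MAP kinases act on serum response factor with its ternary complex partners and on CREB, which are bound at many of these promoters beforehand. The FOS and JUN proteins pair as the AP-1 transcription factor, the EGR proteins are zinc-finger factors, CYR61 is a secreted matrix protein, and DUSP1 is a phosphatase that switches MAP kinases off. In embryonic stem cells in serum, ERK is kept active by FGF4 from the cells themselves and by serum factors.

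The deposited values carry no counts, and their smallest steps put the depth at approximately 21200000 to 28650000 fragments per library, which gives Egr2 approximately 48.5 to 133 fragments and each of the other 9 genes 1032 to 12948. Suv39h2 was at 35.1% of its shNC level in shSuv39h2 (limma, Benjamini-Hochberg adjusted p = 0.000304), while Suv39h1 was at 62.2% in shSuv39h1 and did not pass (adjusted p = 0.0877). Between the knockdowns, Suv39h1 in shSuv39h1 was at 49.5% of its shSuv39h2 level and passed (limma adjusted p = 0.00296). In shSuv39h2 it was at 126% of shNC and did not pass (limma adjusted p = 0.105). Suv39h1 was also lower in H3.1K36M, at 64.4% of H3.1WT (limma adjusted p = 0.0163) and 65.3% of H3.1K9M (limma adjusted p = 0.0127). The H3.1K36M libraries were the closest replicates, with a median variance over well-covered genes of 1.75 times counting variance, against 29.5 times for H3.1K9M, which was the widest pair. All 12 embryonic stem cell markers were above 0 in every library. Of 22 fibroblast feeder markers, 20 or 21 reached 1 FPKM in each library, and 1 of them, Lum, was listed at 0 in 1 library. Their summed level was 2394 to 2470 FPKM in H3.1K36M, 1847 to 3652 FPKM in H3.1K9M and 1348 to 2076 FPKM in H3.1WT. It was 1141 to 1660 FPKM in shSuv39h1, 1679.5 to 2039 FPKM in shSuv39h2 and 1540.3 to 2019 FPKM in shNC. In these bulk samples, fewer cells of a type and less RNA per cell cannot be told apart.

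The promoters of Fos and Egr2, the genes that passed a test, and of Cyr61 and Dusp1 are shown because they differ in the motifs they hold. A link between motifs and levels was not tested. They were taken from the RefSeq table on GRCm38.p6 as the 250 bases before the annotated start, 5′ to 3′ on the gene's strand, and 8 of the 10 genes matched an entry. Egr1 and Ier2 matched none. Capitals mark matches to TGACG on either strand, which is the short form of the CREB site, to TGACGTCA, the full CREB site, and to TATAAA, the TATA box. The first 3 hold such matches and the Egr2 window holds none of the motifs searched.
Fos (chr12:85473640-85473889, plus strand): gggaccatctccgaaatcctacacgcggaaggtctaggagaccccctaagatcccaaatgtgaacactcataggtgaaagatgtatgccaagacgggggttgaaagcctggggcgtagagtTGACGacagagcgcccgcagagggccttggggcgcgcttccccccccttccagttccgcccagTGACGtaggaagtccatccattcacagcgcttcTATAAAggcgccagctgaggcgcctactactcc
Cyr61 (chr3:145649986-145650235, minus strand): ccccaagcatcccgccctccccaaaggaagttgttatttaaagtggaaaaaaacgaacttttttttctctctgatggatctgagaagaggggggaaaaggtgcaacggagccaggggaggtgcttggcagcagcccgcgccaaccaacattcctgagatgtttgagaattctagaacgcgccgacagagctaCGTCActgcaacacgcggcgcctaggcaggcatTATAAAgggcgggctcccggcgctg
Dusp1 (chr17:26508473-26508722, minus strand): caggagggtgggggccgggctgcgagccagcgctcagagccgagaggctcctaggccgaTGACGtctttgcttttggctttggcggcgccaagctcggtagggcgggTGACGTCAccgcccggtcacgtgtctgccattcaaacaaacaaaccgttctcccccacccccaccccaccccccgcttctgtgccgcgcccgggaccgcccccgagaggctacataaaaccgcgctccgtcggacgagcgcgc
Egr2 (chr10:67535249-67535498, plus strand): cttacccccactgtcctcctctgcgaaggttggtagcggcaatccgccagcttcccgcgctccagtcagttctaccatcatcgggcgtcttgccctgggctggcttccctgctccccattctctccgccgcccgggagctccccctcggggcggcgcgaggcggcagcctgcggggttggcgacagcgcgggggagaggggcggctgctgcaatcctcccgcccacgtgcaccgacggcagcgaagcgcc
Fos held TGACG at -129 to -125 and at -66 to -62 from the start and TATAAA at -33 to -28. Cyr61 held the reverse complement of TGACG at -58 to -54 and TATAAA at -25 to -20. Dusp1 held TGACGTCA at -143 to -136, which contains TGACG on both strands, and a separate TGACG at -191 to -187. TGACG was found in 5 of the 8 promoters (Fos, Fosb, Junb, Cyr61 and Dusp1) and in 17.8% of 32851 mouse promoters of the same length. TGACGTCA was found in 1 of 8 and in 1.55% of all, TATAAA in 2 of 8 and in 12.4%, and GCGNGGGCG, the EGR site, in 1 of 8 (Fosb) and in 4.70%. The AP-1 site TGANTCA and the CArG box of serum response factor were found in 0 of the 8, and in 6.75% and 1.47% of all promoters. Both strands were searched for every motif, and a match is only a match of letters in this window. Bases farther than 250 before the start, or after it, were not searched. A motif found in 0 of the 8 windows may thus still lie elsewhere near these genes. Egr2 had 5 entries in the table, and the 1 shown starts 24 bases from the GENCODE M21 gene start. The RefSeq start of Dusp1 lies 53656 bases from the GENCODE M21 gene start, and the GENCODE model is longer.

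By annotation on GRCm38, Fos is at chr12:85473890-85477273, Cyr61 (listed there as Ccn1) at chr3:145646976-145649981, Dusp1 at chr17:26505590-26562128 and Egr2 at chr10:67535475-67542188. Jun, Junb and Ier2 are genes of 1 exon, and the other 7 have between 2 and 5 exons. Jun shares 232 exon bases with the antisense gene Junos, Junb 173 with Prdx2, and Dusp1 11 with Ergic1. Whether the libraries kept strand is not stated, so reads over those bases cannot be assigned to 1 of the genes.

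**Figure D1:**
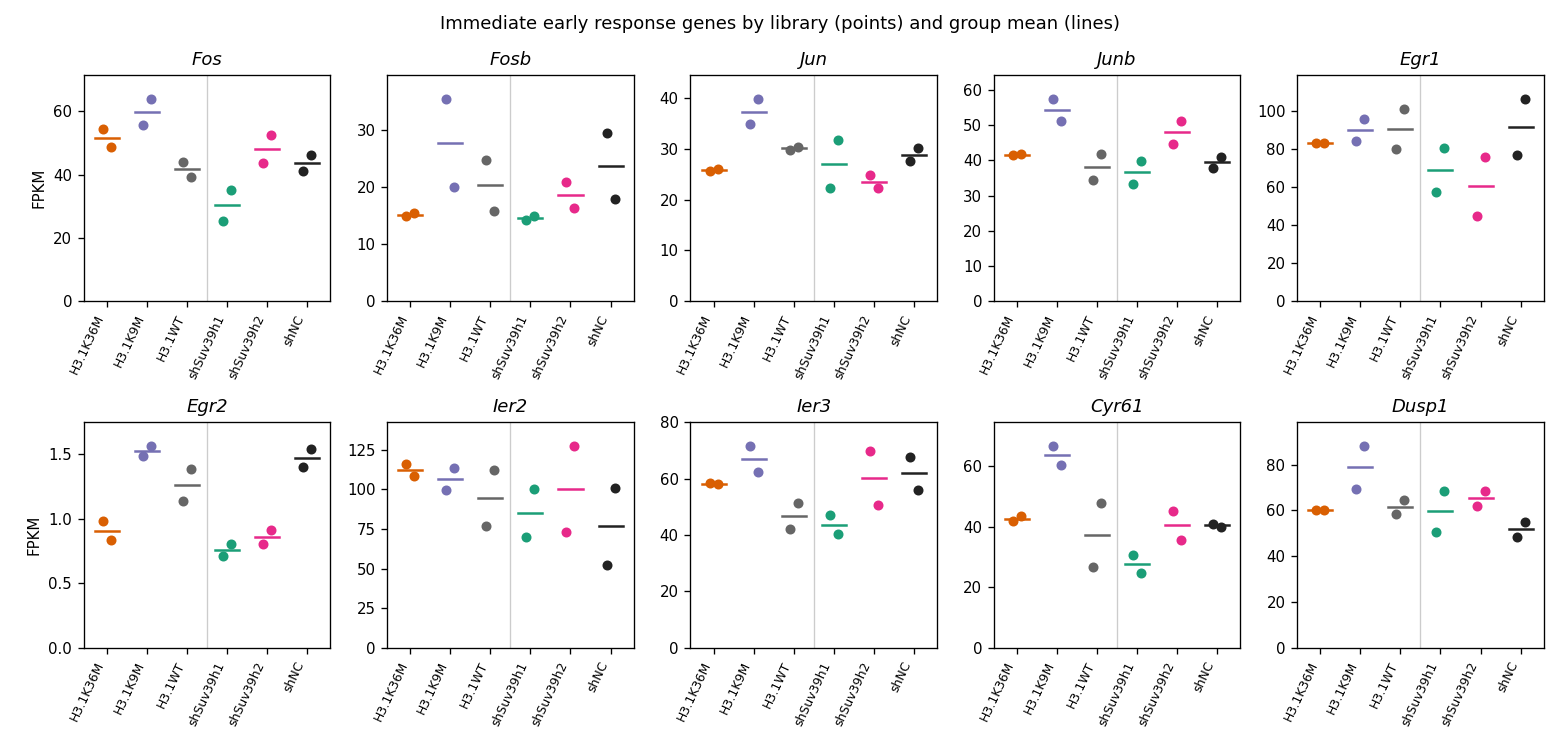
Level in FPKM (y axis, from 0, 1 panel per gene) of the 10 immediate early genes in the 12 libraries, by group along the x axis. Each point is 1 library and each bar the mean of the 2 libraries of a group. Both H3.1K9M points of Fos, Jun, Junb, Cyr61 and Dusp1 lie above every other library. For Junb (51.27 over 51.23 FPKM) and Dusp1 (69.4 over 68.6 FPKM) the margin is within counting error, 1.94% to 2.69% and 1.41% to 2.21%. The Ier2 pairs spread widely in all groups but H3.1K36M and H3.1K9M.

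Among the AP-1 genes, Fos, which encodes the subunit that forms a dimer with JUN proteins, stood at 54.4 and 48.8 FPKM in the H3.1K36M libraries and 55.8 and 63.9 FPKM in the H3.1K9M libraries, against 44.1 and 39.3 FPKM in the H3.1WT libraries. Fos had 25.5 and 35.2 FPKM in shSuv39h1 and 43.6 and 52.5 FPKM in shSuv39h2, against 41.2 and 46.2 FPKM in shNC. Both H3.1K9M libraries were above the 10 others and both shSuv39h1 libraries below the 10 others. Fos was lower in shSuv39h1 than in shSuv39h2, with a log2 fold change of -0.66 (SE 0.15, adjusted p = 0.0371) in limma on log2(FPKM + 1) with Benjamini-Hochberg adjustment over all tested genes, which is the test of every adjusted p that follows. The call was lost without shSuv39h1 replicate 1 (log2 fold change -0.43, limma adjusted p = 0.235), without shSuv39h2 replicate 1 (0.0978) or replicate 2 (0.207), without H3.1WT replicate 1 (0.0566) or replicate 2 (0.0565), and without either H3.1K36M library (0.0653 for both). No other comparison of Fos passed.

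Fosb, which encodes a FOS relative that also pairs with JUN proteins, had 14.8 and 15.4 FPKM in H3.1K36M and 35.3 and 20.0 FPKM in H3.1K9M, against 24.7 and 15.8 FPKM in H3.1WT. In the knockdown lines Fosb had 14.3 and 14.9 FPKM in shSuv39h1 and 20.9 and 16.3 FPKM in shSuv39h2, against 29.3 and 17.8 FPKM in shNC. The H3.1K36M and shSuv39h1 pairs were the lowest and the tightest, while the H3.1K9M pair differed by 0.79 on the log2 scale. Jun, the AP-1 subunit that can also pair with itself, had 25.6 and 26.0 FPKM in H3.1K36M and 34.8 and 39.8 FPKM in H3.1K9M, against 29.8 and 30.4 FPKM in H3.1WT. It had 22.2 and 31.8 FPKM in shSuv39h1 and 24.8 and 22.2 FPKM in shSuv39h2, against 27.6 and 30.1 FPKM in shNC. Both H3.1K9M libraries were the highest of the 12, and the shSuv39h1 pair spanned the range of the remaining groups. Junb, which encodes a JUN relative with weaker activation in many settings, had 41.5 and 41.8 FPKM in H3.1K36M and 57.4 and 51.3 FPKM in H3.1K9M, against 34.3 and 41.9 FPKM in H3.1WT. Its levels were 33.2 and 40.0 FPKM in shSuv39h1 and 44.7 and 51.2 FPKM in shSuv39h2, against 38.0 and 40.8 FPKM in shNC. The H3.1K9M pair again lay above the other libraries, but over shSuv39h2 only by 51.27 to 51.23 FPKM, which is within counting error. No comparison of Fosb, Jun or Junb passed.

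By group mean, the order of Fos was H3.1K9M (59.9 ± 5.72 FPKM, SD, n = 2 as for every group), H3.1K36M (51.6 ± 3.99), shSuv39h2 (48.0 ± 6.30), shNC (43.7 ± 3.51), H3.1WT (41.7 ± 3.39) and shSuv39h1 (30.3 ± 6.87). The libraries of H3.1K9M did not overlap those of H3.1K36M below it, nor those of H3.1WT those of shSuv39h1, and the neighbours between overlapped. For Jun the first step, H3.1K9M (37.3 ± 3.50 FPKM) over H3.1WT (30.1 ± 0.422 FPKM), and the last, H3.1K36M (25.8 ± 0.231 FPKM) over shSuv39h2 (23.5 ± 1.80 FPKM), were free of overlap. For Junb the order began H3.1K9M (54.3 ± 4.35 FPKM), shSuv39h2 (48.0 ± 4.59 FPKM), H3.1K36M (41.7 ± 0.202 FPKM), with no overlap between these neighbours, and shNC, H3.1WT and shSuv39h1 overlapped from 39.4 to 36.6 FPKM. The lack of overlap between H3.1K9M and shSuv39h2 rests on 51.27 over 51.23 FPKM, which is within counting error. Fosb ran between 27.6 ± 10.9 FPKM in H3.1K9M and 14.6 ± 0.420 FPKM in shSuv39h1, and its 4 highest groups overlapped each other in turn.

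Of the EGR genes, Egr1, the zinc-finger factor induced by growth factors, was the more abundant, with 83.3 and 83.1 FPKM in H3.1K36M and 84.0 and 95.9 FPKM in H3.1K9M, against 79.9 and 101 FPKM in H3.1WT. Egr1 had 57.2 and 80.3 FPKM in shSuv39h1 and 44.9 and 76.0 FPKM in shSuv39h2, against 76.9 and 106 FPKM in shNC. Both knockdown groups had the lowest means, 68.7 ± 16.4 FPKM in shSuv39h1 and 60.4 ± 22.0 FPKM in shSuv39h2, and the 4 other groups lay between 83.2 and 91.5 FPKM. The shSuv39h2 libraries stayed just below the shNC libraries, but their own pair differed by 0.75 on the log2 scale, a wider gap than that of 99.6% of tested genes, and the log2 fold change of -0.62 (SE 0.25, adjusted p = 0.154) did not pass.

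Egr2, which encodes a related factor best known from hindbrain and Schwann cell development, was the lowest of the 10 genes. It had 0.980 and 0.838 FPKM in H3.1K36M and 1.48 and 1.57 FPKM in H3.1K9M, against 1.14 and 1.39 FPKM in H3.1WT. In the knockdown lines Egr2 had 0.710 and 0.804 FPKM in shSuv39h1 and 0.807 and 0.915 FPKM in shSuv39h2, against 1.40 and 1.54 FPKM in shNC. Only the 6 libraries of H3.1K9M, H3.1WT and shNC reached 1 FPKM, so Egr2 passed the filter through those groups. Egr2 was lower in H3.1K36M than in H3.1K9M, with a log2 fold change of -0.40 (SE 0.11, adjusted p = 0.0488), and fell in shSuv39h2 relative to shNC, with -0.41 (SE 0.11, adjusted p = 0.0419). On this log2(FPKM + 1) scale the change of a gene near 1 FPKM is understated. The first call was lost when any 1 of the 12 libraries was left out, with limma adjusted p between 0.0512 without shNC replicate 1 and 0.300 without H3.1K36M replicate 2. The second was lost without any 1 of the 10 libraries that were not H3.1K9M, with limma adjusted p between 0.0570 without H3.1WT replicate 2 and 0.186 without shSuv39h2 replicate 1. Egr2 in shSuv39h1 lay just below shSuv39h2, with libraries that did not overlap but came as near as 0.804 and 0.807 FPKM, which is within counting error. In shSuv39h1 its log2 fold change against shNC of -0.49 (SE 0.11, adjusted p = 0.145) did not pass.

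Ier2, which encodes a serum-induced nuclear protein, had 116 and 108 FPKM in H3.1K36M and 99.5 and 113 FPKM in H3.1K9M, against 77.0 and 112 FPKM in H3.1WT. Ier2 had 69.8 and 100.2 FPKM in shSuv39h1 and 73.2 and 127 FPKM in shSuv39h2, against 52.5 and 101 FPKM in shNC. All 5 neighbours in the order of its 6 group means overlapped, and the gap within the shNC pair, 0.93 on the log2 scale, was wider than that of 99.3% of tested genes. The pair gaps in shSuv39h2 (0.79), H3.1WT (0.54) and shSuv39h1 (0.51) were wider than those of 99.7%, 97.4% and 98.1% of genes in the same groups. Ier3, whose product affects cell survival and ERK signalling, had 58.4 and 58.0 FPKM in H3.1K36M and 71.6 and 62.2 FPKM in H3.1K9M, against 42.1 and 51.5 FPKM in H3.1WT. In the knockdown lines Ier3 had 47.1 and 40.2 FPKM in shSuv39h1 and 69.7 and 50.7 FPKM in shSuv39h2, against 67.7 and 56.1 FPKM in shNC. Ier3 was lowest in shSuv39h1 and H3.1WT, which overlapped each other and lay below H3.1K36M, and no comparison of either gene passed.

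Cyr61, the secreted CCN protein that is induced by serum and also by YAP with TEAD factors, had 41.9 and 43.4 FPKM in H3.1K36M and 66.6 and 60.4 FPKM in H3.1K9M, against 26.8 and 47.9 FPKM in H3.1WT. Cyr61 had 30.8 and 24.8 FPKM in shSuv39h1 and 45.3 and 35.5 FPKM in shSuv39h2, against 41.0 and 40.0 FPKM in shNC. Both H3.1K9M libraries were the highest of the 12, and the H3.1WT pair was split by 0.81 on the log2 scale, a wider gap than that of 99.3% of genes. It had the widest range of the 10 genes, the highest library being 2.69 times the lowest, against 1.73 times for Junb, the narrowest. Dusp1, whose product dephosphorylates p38, JNK and ERK, had 60.0 and 60.0 FPKM in H3.1K36M and 69.4 and 88.2 FPKM in H3.1K9M, against 58.4 and 64.6 FPKM in H3.1WT. In the knockdown lines Dusp1 had 50.5 and 68.6 FPKM in shSuv39h1 and 62.1 and 68.5 FPKM in shSuv39h2, against 48.6 and 55.1 FPKM in shNC. Both H3.1K9M libraries of Dusp1 were again the highest, with 78.8 ± 13.3 FPKM against 51.8 to 65.3 FPKM in the other 5 group means. The lower of them, at 69.4 FPKM, exceeded the higher shSuv39h1 library, at 68.6 FPKM, by less than counting error. No comparison of Cyr61 or Dusp1 passed.

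**Figure D2:**
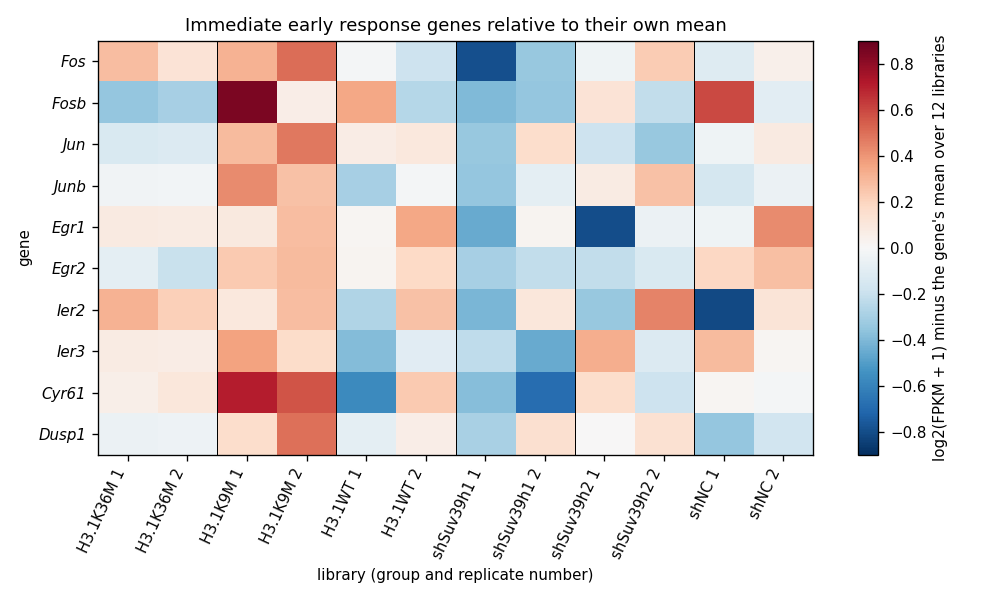
Heat map of log2(FPKM + 1) for each of the 10 genes (rows) in each library (columns, 2 per group), as the difference from that gene's mean over the 12 libraries. All 10 genes are above their own mean in both H3.1K9M libraries, and all 10 are below it in 1 of the 2 shSuv39h1 libraries.

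When each gene was centred on its mean over the 12 libraries, the mean of the 10 genes was 0.35 and 0.34 on the log2 scale in the H3.1K9M libraries, in both of which 10 of 10 genes were above their own mean. It was -0.40 and -0.17 in the shSuv39h1 libraries, with 0 and 4 genes above their mean. The other 8 libraries lay between -0.12 and 0.06, with 4 to 6 genes above. Across the 12 libraries, which share 6 groups and are not independent points, the 45 pairs of these genes had a median Pearson's r of 0.42, with 40 above 0 and 5 below. The closest pairs were Ier3 with Cyr61 (r = 0.85) and Fos with Junb (r = 0.75), and the farthest was Fosb with Ier2 (r = -0.44). The coefficient of variation over the 12 libraries was largest for Fosb (33.4%), Cyr61 (29.5%) and Egr2 (28.7%) and smallest for Junb (16.6%) and Dusp1 (16.7%).

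Among 10006 other genes with a mean of at least 3 FPKM, the profile over the 12 libraries most like the mean of the 10 was that of Zfp36 (r = 0.94), whose product binds AU-rich elements and speeds mRNA decay and which is itself an immediate early gene. Zfp36 had 11.8 and 10.9 FPKM in H3.1K36M and 16.3 and 19.3 FPKM in H3.1K9M, against 9.01 and 13.7 FPKM in H3.1WT. It had 7.07 and 11.6 FPKM in shSuv39h1 and 10.2 and 12.6 FPKM in shSuv39h2, against 10.9 and 12.5 FPKM in shNC. Its likeness was the ground on which it was picked. Emb (r = 0.91), Ktn1 (0.89) and Plp2 (0.87) were also among the 5 closest. For single genes the closest profiles were Emb for Fos (0.92), Kbtbd2 for Fosb (0.89), Skil for Jun (0.85), Bmp4 for Junb (0.91) and Sms for Egr1 (0.89). They were Ktn1 for Egr2 (0.86), Cpsf6 for Ier2 (0.95), Plat for Ier3 (0.95), Rgs16 for Cyr61 (0.95) and 4933404O12Rik for Dusp1 (0.89). These values describe likeness over 12 libraries of shared groups and carry no test.

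The direct comparison of the lysine mutants set H3.1K36M against H3.1K9M. In it 9 of the 10 genes had a log2 fold change below 0, with a median of -0.38 against 0.03 for all 13109 genes. The 1 gene above 0 was Ier2 (0.07), where 56.0% of all genes were above 0. Only Egr2 passed, 1 gene of 10 and lower in H3.1K36M, where 8.24% of all tested genes passed and 2.67% passed as lower. The libraries of the 2 groups did not overlap for 9 of the 10 genes, against 52.0% of all genes, and 6 of the 10 had an unadjusted p below 0.05, against 23.2%. The 5 of these 6 that did not pass were Fosb, with a log2 fold change of -0.78 (SE 0.30, adjusted p = 0.148), Jun, with -0.51 (SE 0.14, adjusted p = 0.0591), Junb, with -0.37 (SE 0.12, adjusted p = 0.0999), Cyr61, with -0.56 (SE 0.22, adjusted p = 0.167), and Dusp1, with -0.38 (SE 0.15, adjusted p = 0.173). Fos (-0.21), Ier3 (-0.19) and Egr1 (-0.11) had smaller differences. Without H3.1K9M replicate 2, Fosb passed (log2 fold change -1.17, limma adjusted p = 0.0407) and Egr2 did not (0.0939). The feeder markers averaged 5.28 and 5.25 on the log2 scale in H3.1K36M and 5.56 and 4.68 in H3.1K9M, and with that average as a covariate 4 genes passed as lower, Cyr61 (limma adjusted p = 0.0336), Egr2 (0.0301), Jun (0.0371) and Junb (0.0479). Over all 13109 genes that covariate took the calls to 2100, against 1080 without it. Of the 12 embryonic stem cell markers, 5 were higher in H3.1K36M than in H3.1K9M, with a median log2 fold change of 0.35. They were Nanog (376 FPKM in H3.1K36M and 123 FPKM in H3.1K9M, log2 fold change 1.62, limma adjusted p = 0.000512), Fgf4 (47.7 FPKM in H3.1K36M and 26.6 FPKM in H3.1K9M, 0.00843), Esrrb (154 FPKM in H3.1K36M and 94.2 FPKM in H3.1K9M, 0.0105), Zfp42 (438 FPKM in H3.1K36M and 287 FPKM in H3.1K9M, 0.0160) and Klf4, which is also in the wider list described further on. Nanog passed in 12 of 12 fits without 1 library, and Fgf4, Esrrb and Zfp42 in 10 each. The part of these markers in the values of the immediate early genes was not tested.

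**Figure D3:**
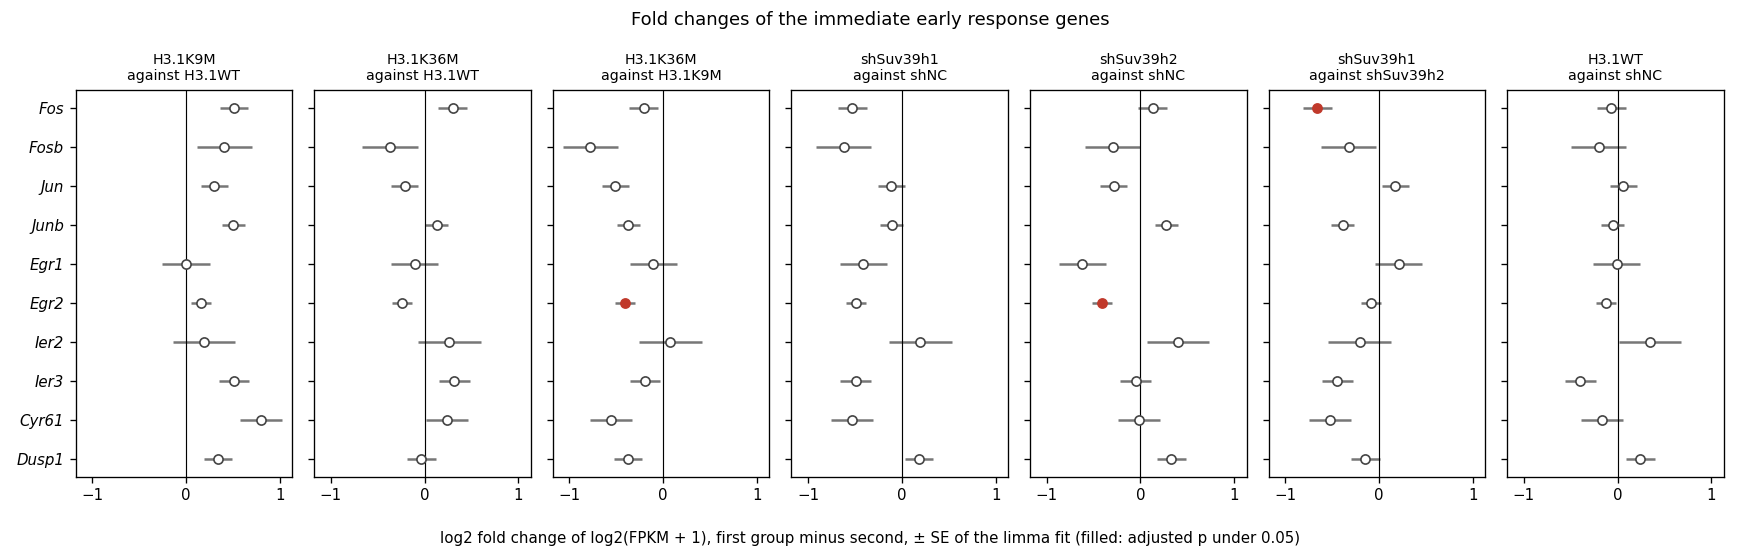
Log2 fold change (x axis, on log2(FPKM + 1), with 1 SE) of each of the 10 genes (rows) in each comparison (panels), filled red where the limma adjusted p was below 0.05. The 3 red points are Egr2 in H3.1K36M against H3.1K9M, Fos in shSuv39h1 against shSuv39h2 and Egr2 in shSuv39h2 against shNC.

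Against the lines with wild-type histone, H3.1K9M had higher values for 9 of the 10 genes, with a median log2 fold change of 0.38 against -0.01 for all genes, and 47.6% of all genes were above 0. In limma 0 of 10 passed, where 0.313% of all genes did. Over all genes the calls were 41, against 695 without H3.1K9M replicate 2, 2 without H3.1WT replicate 1 and 4 without H3.1WT replicate 2, and 0 of the 10 passed in any of these fits. Egr1 was the exception as deposited, and all 10 lay above 0 after quantile normalization and after median-of-ratios scaling. The libraries did not overlap for 7 of the 10 genes, against 35.2% of all genes, and 5 of the 10 had an unadjusted p below 0.05, against 11.2%. These 5 were Cyr61, with a log2 fold change of 0.80 (SE 0.22, adjusted p = 0.246), Fos, with 0.51 (SE 0.15, adjusted p = 0.276), Ier3, with 0.51 (SE 0.16, adjusted p = 0.309), Junb, with 0.50 (SE 0.12, adjusted p = 0.203), and Dusp1, with 0.34 (SE 0.15, adjusted p = 0.444). All 21 tested feeder markers were also above 0 in this comparison, with a median log2 fold change of 0.64, and 0 of them passed in limma while 6 had an unadjusted p below 0.05. Their average was 5.56 and 4.68 on the log2 scale in H3.1K9M, against 4.18 and 4.83 in H3.1WT, so the pairs overlapped. With this average as a covariate the log2 fold change of Cyr61 was 0.49 and that of Ier3 0.36, while Fos was at 0.67, Junb at 0.42 and Dusp1 at 0.47, and none of the 5 passed.

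H3.1K36M against H3.1WT showed 5 genes above 0 and 5 below, with a median log2 fold change of 0.05 against 0.03 for all genes, of which 56.0% were above 0. In limma 0 of 10 passed, where 4.84% of all genes did, and 1 had an unadjusted p below 0.05, Egr2 with a log2 fold change of -0.24 (SE 0.11, adjusted p = 0.233), against 20.8% of all genes. Non-overlap of the libraries was seen for 5 of the 10 genes and for 65.9% of all genes. Fos (0.30) and Ier3 (0.32) had the largest positive differences and Fosb (-0.37) the largest negative one. The feeder markers were higher here as well, with a median log2 fold change of 0.75, and 3 of 21 (Postn, Col6a2 and Col3a1) rose. Postn passed in 7 of the 8 other settings and 9 of the 12 fits without 1 library, Col6a2 in 2 and 4, and Col3a1 in 0 and 5. Of the 12 embryonic stem cell markers 2 rose, Nanog (limma adjusted p = 0.0129) and Fgf4 (0.0331), which passed in 8 and 6 of the 12 fits. No covariate of stem cell markers was fitted, so their part in the values of the immediate early genes was not tested. With the feeder average as a covariate 0 of 10 passed.

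For the knockdown of Suv39h1 against shNC, 8 of the 10 genes were below 0, with a median log2 fold change of -0.45 against 0.04 for all genes, and Ier2 (0.20) and Dusp1 (0.18) were above, as were 61.3% of all genes. In limma 0 of 10 passed, where 0.145% of all genes did, and 4 of 10 had an unadjusted p below 0.05, against 10.6%. The 4 were Fos, with a log2 fold change of -0.53 (SE 0.15, adjusted p = 0.272), Egr2, with -0.49 (SE 0.11, adjusted p = 0.145), Ier3, with -0.49 (SE 0.16, adjusted p = 0.334), and Cyr61, with -0.54 (SE 0.22, adjusted p = 0.442). The libraries did not overlap for 5 of the 10 genes, against 39.4% of all genes. All 21 tested feeder markers were below 0 in the same comparison, with a median log2 fold change of -0.42 and 0 that passed in limma. Their average was 4.44 and 4.02 on the log2 scale in shSuv39h1, against 4.38 and 4.85 in shNC, which overlapped. With it as a covariate Cyr61 was at -0.34, Ier3 at -0.40, Egr2 at -0.48 and Fos at -0.63, none of which passed. The fall of Suv39h1 itself did not pass against shNC but passed against shSuv39h2, and the group is named by its label.

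For shSuv39h2 against shNC the 10 genes were split, 4 above 0 and 6 below, with a median log2 fold change of -0.03 against 0.04 for all genes, of which 57.3% were above 0. Egr2 was the 1 gene of 10 that passed, where 10.0% of all genes passed and 4.69% passed as lower. Egr1 (-0.62), Jun (-0.29) and Fosb (-0.30) were the next lowest, and Ier2 (0.40), Dusp1 (0.33) and Junb (0.28) the highest. Unadjusted p was below 0.05 for 2 of the 10, against 25.8% of all genes, and libraries did not overlap for 5 of the 10, against 50.8%. The feeder markers had a median log2 fold change of 0.05, and 1 of them, Thy1, fell. Of the 12 embryonic stem cell markers 3 rose, Klf4, Pou5f1 (limma adjusted p = 0.0135) and Utf1 (0.0179).

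Set against each other, shSuv39h1 was below shSuv39h2 for 8 of the 10 genes, with a median log2 fold change of -0.26. Of all genes, 49.6% were above 0. Fos was the 1 of 10 that passed, where 6.56% of all genes passed and 2.00% passed as lower. Libraries did not overlap for 6 of the 10 genes, against 58.7% of all genes, and unadjusted p was below 0.05 for 4 of 10, against 21.7%. After Fos these were Cyr61, with a log2 fold change of -0.52 (SE 0.22, adjusted p = 0.213), Ier3, with -0.44 (SE 0.16, adjusted p = 0.149), and Junb, with -0.39 (SE 0.12, adjusted p = 0.101). The feeder markers had a median of -0.46 here, and with their average as a covariate Fos still passed (-0.76, limma adjusted p = 0.0137).

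The control lines of the overexpression and knockdown arms, H3.1WT and shNC, were also compared. In limma 0 of the 10 genes passed, where 0.336% of all genes did, 1 had an unadjusted p below 0.05 against 11.4%, and 3 had libraries that did not overlap against 39.4%. That gene was Ier3, with a log2 fold change of -0.40 (SE 0.16, adjusted p = 0.390), and the median of the 10 was -0.06, with 3 above 0, against 0.03 for all genes, of which 55.8% were above 0. Ier3 in H3.1K9M (71.6 and 62.2 FPKM) thus lay above H3.1WT but overlapped shNC (67.7 and 56.1 FPKM).

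Whether the overexpression of H3.1K9M and the knockdown of either methyltransferase gene moved these genes differently was tested as a difference between responses, each taken against its own control. The H3.1K9M response exceeded the shSuv39h1 response most for Cyr61, with 1.34 (SE 0.32, adjusted p = 0.212) on the log2 scale, Fos, with 1.04 (SE 0.22, adjusted p = 0.177), Fosb, with 1.03 (SE 0.42, adjusted p = 0.332), and Ier3, with 1.00 (SE 0.23, adjusted p = 0.209). In limma 0 of 10 passed, as did 0 of all 13109 genes, and 6 of the 10 had an unadjusted p below 0.05, against 13.6% of all genes. Without H3.1K9M replicate 2, Ier3 passed (1.10, limma adjusted p = 0.0469), in a fit that called 704 of all genes, against 0 with all libraries. For the shSuv39h2 response 0 of 10 passed, where 0.160% of all genes did, and 4 had an unadjusted p below 0.05, against 14.8%. The largest of these were Cyr61 (0.82), Jun (0.58) and Egr2 (0.57).

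**Figure D4:**
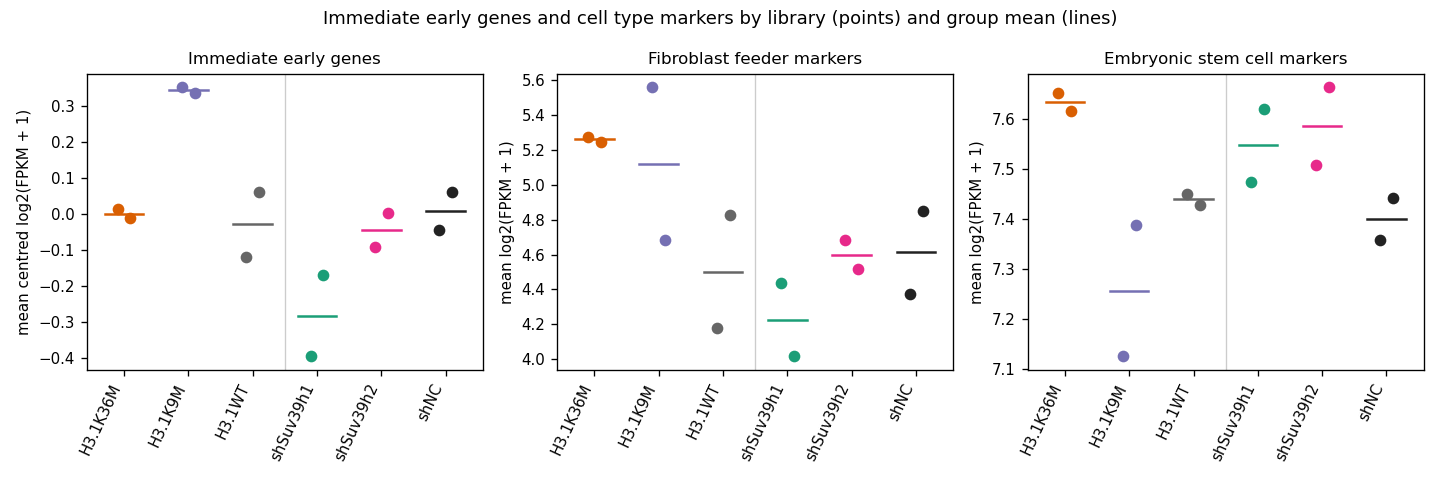
The first panel plots the mean difference of the 10 immediate early genes from their own averages over the 12 libraries, and the others the mean log2(FPKM + 1) of the fibroblast feeder markers and of the embryonic stem cell markers (y axes), by group (x axis), with points for libraries and lines for group means. The immediate early genes are highest in both H3.1K9M libraries. The feeder markers are at 5.28 and 5.25 in H3.1K36M and at 5.56 and 4.68 in H3.1K9M.

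A wider list of 52 other immediate early and early response genes, of which 50 were tested, was set beside the 10. This list too was chosen with earlier results of these data known. In H3.1K36M against H3.1K9M, 4 of the 50 were lower and 1 higher, where 8.24% of all genes passed, and 19 had an unadjusted p below 0.05, against 23.2% of all genes. The median of the 50 log2 fold changes lay at -0.23, with 40 below 0. Atf3, a stress-induced ATF/CREB factor, had 4.85 ± 0.258 FPKM in H3.1K36M and 15.0 ± 3.74 FPKM in H3.1K9M (log2 fold change -1.43, limma adjusted p = 0.00353). Klf6, a serum-induced zinc-finger factor, had 13.3 ± 0.245 FPKM in H3.1K36M and 30.9 ± 6.41 FPKM in H3.1K9M (-1.15, limma adjusted p = 0.00394). Both passed under each of the 9 other settings tried and without any 1 of the 12 libraries. Btg1 (7.86 FPKM in H3.1K36M and 11.7 FPKM in H3.1K9M) and Trib1 (3.80 FPKM in H3.1K36M and 7.31 FPKM in H3.1K9M) were lower as well, and Klf4, which is also a pluripotency factor, was higher (75.8 FPKM in H3.1K36M and 57.9 FPKM in H3.1K9M). With 1 library left out at a time, Btg1 passed in 9 of 12 fits, Klf4 in 4 and Trib1 in 2, with limma adjusted p up to 0.171, 0.248 and 0.271.

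Against H3.1WT the H3.1K36M lines again had less Atf3 (4.85 ± 0.258 FPKM in H3.1K36M and 14.3 ± 3.19 FPKM in H3.1WT, log2 fold change -1.37, limma adjusted p = 0.00729). They had more Arc (10.6 ± 0.0626 FPKM in H3.1K36M and 5.45 ± 0.209 FPKM in H3.1WT, log2 fold change 0.84, limma adjusted p = 0.0196), the neuronal activity gene that is also serum-induced. Both passed under the 8 other settings tried, and Atf3 in 9 and Arc in 8 of the 12 fits without 1 library, with limma adjusted p up to 0.0812 and 0.149. They were the 2 calls in that comparison, where 4.84% of all genes passed. The list's median was 0.04, and 11 of 50 had an unadjusted p below 0.05, against 20.8% of all genes. In H3.1K9M against H3.1WT 0 of the 50 passed in limma, 16 had an unadjusted p below 0.05, against 11.2% of all genes, and 44 were above 0, with a median log2 fold change of 0.28. The lowest p-values there belonged to Ctgf, the CCN relative of Cyr61, with 103 FPKM in H3.1K9M and 58.8 FPKM in H3.1WT, and to Plk3, Klf6 and Arc, with limma adjusted p between 0.301 and 0.342.

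In shSuv39h2 against shNC 5 of the 50 rose and 0 fell, a share near the 10.0% of all genes that passed. An unadjusted p below 0.05 was seen for 11, against 25.8% of all genes, and the median log2 fold change was 0.11. Id1, a BMP target, had 82.0 ± 9.55 FPKM in shSuv39h2 and 42.9 ± 8.78 FPKM in shNC (log2 fold change 0.93, limma adjusted p = 0.00981). Klf4 had 85.7 FPKM in shSuv39h2 and 59.2 FPKM in shNC, Klf2, another pluripotency-associated KLF factor, 304 FPKM in shSuv39h2 and 188 FPKM in shNC, and Zfp36l1, a relative of Zfp36, 32.3 FPKM in shSuv39h2 and 22.2 FPKM in shNC. The fifth, Tgif1, was named after its values were seen (82.2 FPKM in shSuv39h2 and 64.6 FPKM in shNC). Without 1 library at a time, Klf4 passed in 11 of 12 fits, Id1 in 10, Klf2 in 9 and Zfp36l1 in 7, with limma adjusted p up to 0.0750, 0.0774, 0.0799 and 0.191. In shSuv39h1 against shNC 0 of 50 passed in limma, where 0.145% of all genes did, with a median of -0.06. An unadjusted p below 0.05 was seen for 8, against 10.6% of all genes. In shSuv39h1 against shSuv39h2 0 of 50 passed, where 6.56% of all genes did, and 10 had an unadjusted p below 0.05, against 21.7%. The median there was -0.15, with 43 of the 50 below 0, where 49.6% of all genes were above 0. In the second of these, Nr4a1, an orphan nuclear receptor induced by serum, had 29.5 FPKM in shSuv39h1 and 39.8 FPKM in shSuv39h2 (limma adjusted p = 0.0511).

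**Figure D5:**
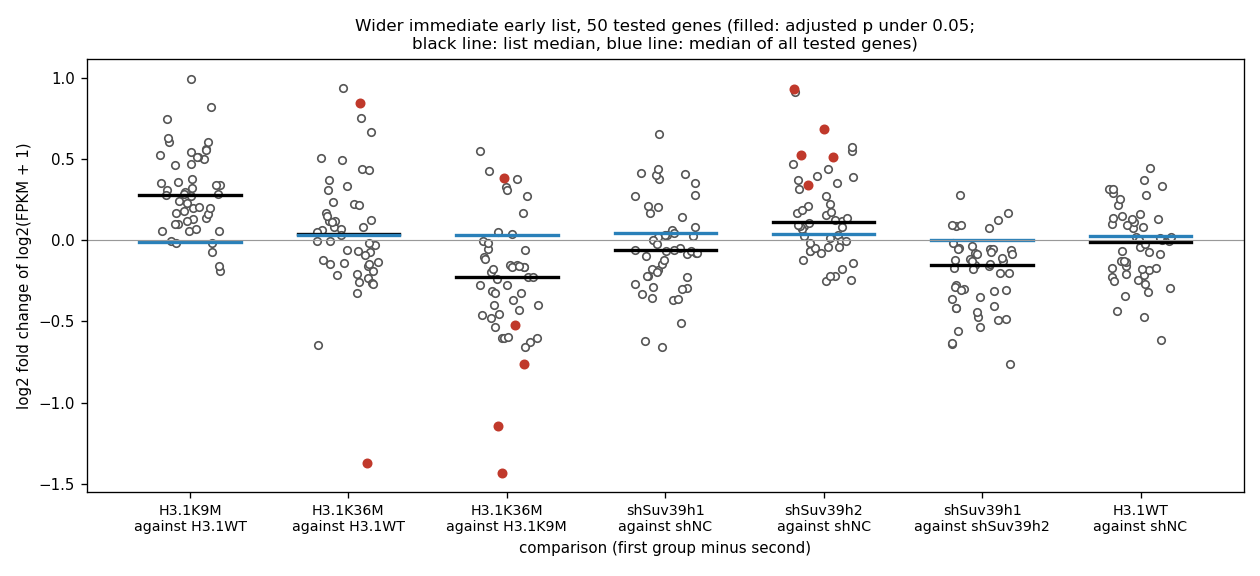
Log2 fold change (y axis, on log2(FPKM + 1)) of the 50 tested genes of the wider immediate early list in each comparison (x axis), 1 dot per gene, filled red where the limma adjusted p was below 0.05, with the list's median in black and the median of all tested genes in blue. The list's median lies at -0.23 in H3.1K36M against H3.1K9M and at 0.28 in H3.1K9M against H3.1WT, with the median of all genes near 0 in both.

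The genes that act above and below the immediate early genes were taken from lists as well. Of 28 tested upstream kinases and transcription factors, Mapk3, which encodes ERK1, was the 1 call in H3.1K36M against H3.1K9M, where 8.24% of all genes passed (48.0 FPKM in H3.1K36M and 61.3 FPKM in H3.1K9M, log2 fold change -0.35, limma adjusted p = 0.0127). Mapk9, which encodes a JNK, fell in shSuv39h2 (13.6 FPKM in shSuv39h2 and 18.2 FPKM in shNC, limma adjusted p = 0.0434), where 10.0% of all genes passed, and was higher in shSuv39h1 than in shSuv39h2 (limma adjusted p = 0.0484). Of 18 MAP kinase phosphatases and ERK feedback genes, Dusp4 (11.7 FPKM in H3.1K36M and 18.6 FPKM in H3.1K9M, limma adjusted p = 0.0313) and Dusp6 (16.5 FPKM in H3.1K36M and 27.9 FPKM in H3.1K9M, limma adjusted p = 0.0357), both ERK-induced phosphatases, were lower in H3.1K36M than in H3.1K9M. Etv4, an ERK-induced ETS factor, rose in shSuv39h1 (61.0 FPKM in shSuv39h1 and 43.7 FPKM in shNC, limma adjusted p = 0.0451) and in shSuv39h2 (57.8 FPKM in shSuv39h2 and 43.7 FPKM in shNC, limma adjusted p = 0.00846), and Spred1, an ERK pathway inhibitor, rose in shSuv39h2 (17.7 FPKM in shSuv39h2 and 11.6 FPKM in shNC, limma adjusted p = 0.0243). Both Etv4 comparisons share the shNC libraries, and 0.145% of all genes passed in the first and 10.0% in the second. Without 1 library at a time, Mapk3 passed in 10 of 12 fits, Mapk9 in 3 for shSuv39h2 against shNC and in 4 between the knockdowns, Dusp4 in 5, Dusp6 in 8 and Spred1 in 9, and Etv4 in 2 for shSuv39h1 and 11 for shSuv39h2.

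Of the 14 tested relatives and partners of AP-1 and EGR, Atf3 and Mafk (7.39 FPKM in H3.1K36M and 11.0 FPKM in H3.1K9M, limma adjusted p = 0.0452) were lower in H3.1K36M than in H3.1K9M. In that comparison 8.24% of all genes passed. Of 15 tested genes of the CCN family and the YAP-TEAD pathway, Tead4, a partner of YAP, rose in H3.1K36M relative to H3.1WT (8.28 FPKM in H3.1K36M and 5.40 FPKM in H3.1WT, limma adjusted p = 0.0109). It was also higher in H3.1K36M than in H3.1K9M (limma adjusted p = 0.0420). In shSuv39h2 relative to shNC both Tead2 (45.7 FPKM in shSuv39h2 and 35.9 FPKM in shNC, limma adjusted p = 0.0138) and Tead4 (7.28 FPKM in shSuv39h2 and 5.40 FPKM in shNC, 0.0312) rose, and Tead2 was lower in shSuv39h1 than in shSuv39h2 (37.8 FPKM in shSuv39h1 and 45.7 FPKM in shSuv39h2, 0.0478). All 15 were above 0 in H3.1K36M against H3.1WT (56.0% of all genes), with a median log2 fold change of 0.29. In H3.1K9M against H3.1WT 14 of 15 were above 0 (47.6% of all genes), with a median of 0.37. In shSuv39h1 against shNC 12 of 15 were below 0, with a median of -0.29, where 61.3% of all genes were above 0. Between the knockdowns 14 of 15 were lower in shSuv39h1, with a median of -0.27, where 49.6% of all genes were above 0. Under the alternative settings these 4 medians ran from -0.02 to 0.42, -0.03 to 0.67, -0.38 to -0.004 and -0.36 to -0.07, in the same order. Of the 21 tested feeder markers, 21 were above 0 in each of the first 2 comparisons. In the third 21 were below 0, and in the fourth 18. The cause of this likeness was not tested. Of all genes, 4.84% passed in H3.1K36M against H3.1WT, 10.0% in shSuv39h2 against shNC and 6.56% between the knockdowns. With 1 library left out at a time, Mafk passed in 3 of 12 fits, Tead4 in 8 for H3.1K36M against H3.1WT, in 3 against H3.1K9M and in 2 for shSuv39h2, and Tead2 in 9 for shSuv39h2 and in 4 between the knockdowns. Cyr61 stood at 0.24 in H3.1K36M against H3.1WT, 0.80 in H3.1K9M against H3.1WT, -0.54 in shSuv39h1 against shNC and -0.52 between the knockdowns.

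A list of 17 heat shock and dissociation stress genes was also read. In H3.1K9M against H3.1WT 0 of the 17 passed in limma, where 0.313% of all genes did, with a median log2 fold change of 0.05. An unadjusted p below 0.05 was seen for 1, against 11.2% of all genes. In shSuv39h1 against shNC 0 passed, where 0.145% of all genes did, with a median of 0.06. There 2 had an unadjusted p below 0.05, against 10.6% of all genes. Of the 17, 2 passed as higher and 1 as lower in H3.1K36M against H3.1K9M, where 8.24% of all genes passed. In H3.1K36M against H3.1WT 2 passed as higher (4.84% of all genes), and in shSuv39h2 against shNC 2 (10.0%). Between the knockdowns 2 passed as higher and 1 as lower (6.56%), and 1 passed as lower in H3.1WT against shNC (0.336%). Hspb1, which encodes a small heat shock protein, had 421 FPKM in H3.1K36M and 294 FPKM in H3.1K9M (limma adjusted p = 0.00867), and the metallothionein gene Mt2 had 2505 FPKM in H3.1K36M and 1529 FPKM in H3.1K9M (limma adjusted p = 0.0269), both higher in H3.1K36M, and both also rose relative to H3.1WT (limma adjusted p = 0.00851 and 0.0187). Hspb1 was lower in H3.1WT than in shNC (limma adjusted p = 0.0226). Mt2 and its relative Mt1 were higher in shSuv39h1 than in shSuv39h2 (limma adjusted p = 0.0176 and 0.0384). The inducible Hsp70 gene Hspa1a was lower in H3.1K36M (2.83 FPKM in H3.1K36M and 4.35 FPKM in H3.1K9M, limma adjusted p = 0.0465) and rose in shSuv39h2 (5.69 FPKM in shSuv39h2 and 3.68 FPKM in shNC, limma adjusted p = 0.0319). It was lower in shSuv39h1 than in shSuv39h2 (limma adjusted p = 0.0471). Its near-identical copy Hspa1b, which rose in shSuv39h2 (limma adjusted p = 0.0311), can share reads with it, so both values are uncertain. Of 12 fits without 1 library, Hspb1 passed in 10, Mt2 in 9, and Hspa1a in 2, for H3.1K36M against H3.1K9M. Of the same 12, Hspa1a and Hspa1b passed in 5 each for shSuv39h2 against shNC, Mt1 and Hspa1a in 4 each and Mt2 in 8 between the knockdowns, Hspb1 in 9 and Mt2 in 8 against H3.1WT, and Hspb1 in 5 between the controls.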

How the data were processed

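The deposited values are FPKM per gene and library, a unit read from the values and the tools. The authors used TopHat2 2.0.13, Cuffdiff 2.2.1 and the mm10 build, per the submitters' processing notes. How libraries were scaled, and whether strand was kept, is not stated, and the labels name 2 library kits. The 23354 genes in all 12 files were joined by symbol. Values were analysed as log2(FPKM + 1) for the 13109 genes that reached 1 FPKM in 2 or more libraries, with limma 3.58.1 (trend) in R 4.3.3, in 1 fit of 6 group means with 6 residual degrees of freedom, Benjamini-Hochberg adjustment over all tested genes and a threshold of 0.05. Log2 fold changes on this scale understate changes of low genes. The fit was run on simulated data in which each gene had the same spread in all 6 groups. The real pairs ran from 1.75 times counting variance in H3.1K36M to 29.5 times in H3.1K9M. The simulation could therefore not test how unequal spread affects the calls.

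Depth was estimated from the steps between low FPKM values of 1350 genes. In each library 404 to 450 values above 0 were read, of which 34.2% to 42.8% were whole reads within 0.05. The step was chosen as the one with the most such values, so the 10% expected for a fixed step is not the chance level of these shares. No counts were recovered for a count test. All 10 genes were named in each comparison. From each wider list, genes were taken among the 4 per direction with the smallest p. The 5 profiles most like the mean of the 10 genes were taken by Pearson's r, of which 1 is not reported here. The 10 genes and the lists were chosen with earlier results of these data known. Alternatives were another pseudocount, filter and scaling, each arm alone, a replicate block, a feeder covariate and each library left out. Annotation was GENCODE M21.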

Additional observations from a re-analysis of the deposited data

How the results depend on the processing

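Of 1647 values over 81 results recomputed under an alternative, 1284 kept their direction and side of the threshold, 350 lost a call, 13 gained one and none reversed. Results that had not passed are among the 81 and could not lose a call, so the 350 are not a share of the calls alone. Of the 10 genes, the number passing in H3.1K36M against H3.1K9M, 1 as reported, was 0 with a pseudocount of 0.1, 0 with a filter of 5 FPKM, which leaves Egr2 untested, and 0 with the replicate block. It was 2 after median-of-ratios scaling, which added Jun (limma adjusted p = 0.0335), and 4 with the feeder covariate. Quantile normalization and the arm fitted alone called Jun (0.0378 and 0.0365) in place of Egr2. For shSuv39h1 against shSuv39h2, 1 as reported, the number was 0 without a filter and 0 in the arm alone. For shSuv39h2 against shNC, 1 as reported, it was 0 with the 5 FPKM filter, 0 after quantile normalization and 0 in the arm alone, and 2 with the replicate block, which added Egr1 (0.0387). With 1 library left out the number was 0 to 1 in these comparisons and in the H3.1K9M minus shSuv39h1 response, and 0 in all others. Jun passed in H3.1K36M against H3.1K9M without either shSuv39h1 library (0.0204 and 0.0205) and Cyr61 without either H3.1WT library (0.0460 and 0.0461). The causes were not tested.

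The labels do not say what a replicate number marks, and 2 pairs a comparison are too few to tell whether it pairs libraries. The correlation of same-numbered deviations was 0.38 in shSuv39h2 against shNC and in H3.1WT against shNC, 0.14 in shSuv39h1 against shSuv39h2, and between -0.38 and -0.02 in the others. The replicate block called 10 genes of 13109 in shSuv39h1 against shNC in place of 19. With crossed numbers the calls over all genes were 46 for H3.1K9M against H3.1WT, 1080 for H3.1K36M against H3.1K9M and 8 for shSuv39h1 against shNC. Over all genes the calls fell by more than 1.5 times in the arm fitted alone, to 510 of 1080 in H3.1K36M against H3.1K9M, 186 of 634 in H3.1K36M against H3.1WT, 2 of 41 in H3.1K9M against H3.1WT, 1 of 44 in H3.1WT against shNC (the controls), 3 of 19 in shSuv39h1 against shNC, 348 of 860 in shSuv39h1 against shSuv39h2 and 866 of 1316 in shSuv39h2 against shNC. With the feeder covariate they were 2100 in H3.1K36M against H3.1K9M, 222 for the controls, 68 in shSuv39h1 against shNC and 2393 in shSuv39h2 against shNC. With a filter of 5 FPKM they were 663 in H3.1K36M against H3.1K9M, 354 in H3.1K36M against H3.1WT, 27 in H3.1K9M against H3.1WT and 29 for the controls. They were 12 without a filter in H3.1K9M against H3.1WT, and 11 with a pseudocount of 0.1 in shSuv39h1 against shNC. With 1 library left out they ran between 267 (without H3.1K36M replicate 1) and 1424 in H3.1K36M against H3.1K9M, 107 (without H3.1K36M replicate 2) and 1185 in H3.1K36M against H3.1WT, 2 (without H3.1WT replicate 1) and 695 in H3.1K9M against H3.1WT, 7 and 147 (without shNC replicate 2) for the controls, 0 (without shSuv39h1 replicate 1) and 58 in shSuv39h1 against shNC, 76 (without shSuv39h1 replicate 2) and 1438 in shSuv39h1 against shSuv39h2, and 360 (without shSuv39h2 replicate 1) and 1998 in shSuv39h2 against shNC. The highest of these numbers came without an H3.1K9M library in each comparison but that of the controls. The H3.1K9M minus shSuv39h1 response, 0 as reported, ran between 0 and 704, and the H3.1K9M minus shSuv39h2 response, 21 as reported, between 4 and 563 with 1 library left out, both highest without H3.1K9M replicate 2, and between 3 and 352 under the other settings. At approximately 48.5 to 133 fragments, counting error alone is 8.67% to 14.4% for Egr2 and at most 3.11% for the other 9 genes, and with 2 libraries a group the SE of a log2 fold change was 0.11 to 0.33.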
